A study of Mus musculus with 6 samples.

Results

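Expression of 10 genes of bone morphogenetic protein (BMP) signaling was compared between *Phf2* KO and control C2C12 cells: the ligands *Bmp2*, *Bmp4* and *Bmp6*, the secreted antagonist *Grem1*, the receptors *Bmpr1a* and *Bmpr2*, the signal transducers *Smad1* and *Smad5*, and the inhibitory *Smad6* and *Smad7*. They were taken by gene symbol, and each matched 1 of the 55401 genes in the count matrix. C2C12 cells are mouse myoblasts that form myotubes when serum is lowered, and RNA was taken 2 d post differentiation in DMEM with horse serum. The 3 *Phf2* KO libraries came from cells that received a pool of 4 guide plasmids with Cas9 and ZsGreen, and the 3 control libraries (wild type in the labels, mock in the study) from cells with the same kind of plasmid and a guide that matches no mouse sequence. Sorted cells were not cloned, so *Phf2* KO is a mixed population, and the libraries of a group are wells of 1 experiment. P-values thus measure the spread between wells, which may be technical. PHF2 removes the repressive H3K9me2 mark from histone H3.

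BMP ligands are secreted dimers of the TGF-beta superfamily. They bind paired type I and type II serine/threonine kinase receptors, such as BMPR1A and BMPR2, which phosphorylate the receptor-regulated SMADs (SMAD1, SMAD5 and SMAD9). These enter the nucleus with SMAD4 and switch on targets such as the *Id* genes, while SMAD6 and SMAD7 are induced by the signal and restrain it, and gremlin, noggin, chordin and follistatin hold ligands outside the cell. In C2C12 cells, BMP is known to hold back myogenic differentiation and to favor osteoblast genes.

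*Phf2* itself (ENSMUSG00000038025.8) was 41.1, 37.6 and 38.6 CPM in the *Phf2* KO libraries and between 95.5 and 104.6 CPM in the control libraries, and fell by 1.37 on the log2 scale (standard error, SE, 0.055, adjusted p = 8.32e-09). CPM is the count relative to the library total after TMM scaling. Unless another tool is named, adjusted p-values come from the quasi-likelihood test of edgeR, adjusted by Benjamini-Hochberg over 17310 genes, with 0.05 as the threshold. Myotube markers were lower in *Phf2* KO cells: of the 10 listed, 8 fell past the threshold, where 3.26% of all genes tested did. Among the 8 were *Myh3*, by 0.44, and *Des*, by 0.37 on the log2 scale, but *Acta1* was not. In CPM, all *Phf2* KO libraries lay below all control libraries for each of the 10, where 12.2% of all genes tested showed this. The summed level of the 10 was 5402 to 5996 TPM against 6656.5 to 8426 TPM in control cells. TPM is the level per transcript length that the authors scaled within each library. In bulk RNA, fewer cells of a type and less RNA per cell cannot be told apart, and the part of this shift in the results that follow was not tested. Endothelial and macrophage markers were near 0, at most 0.356 and 3.57 TPM summed per library.

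Of the 10 BMP genes, 3 rose past the threshold in *Phf2* KO cells (*Bmp4*, *Smad6* and *Smad7*) and 0 fell. The share of genes past it with a rise was 3.22% of all genes tested, and 6.48% in either direction. At an unadjusted p under 0.05, 1 of the 10, *Grem1*, was lower, where 9.47% of all genes tested were lower at that level, so this count is near the background. DESeq2 also called *Grem1*. All 10 genes passed the filter on low counts, though *Bmp2* did not with counts divided by 2. The median of their log2 fold changes was 0.08, and that of all genes tested was -0.001. The *Phf2* KO libraries lay above every control library for 6 of the 10, a pattern that 12.9% of all genes tested showed, and below every control library for 0 (12.2% of all genes tested). In the fits without 1 library, 2 or 3 of the 10 genes passed, and *Smad6* was lost in 4 of the 6 fits.

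**Figure D1:**
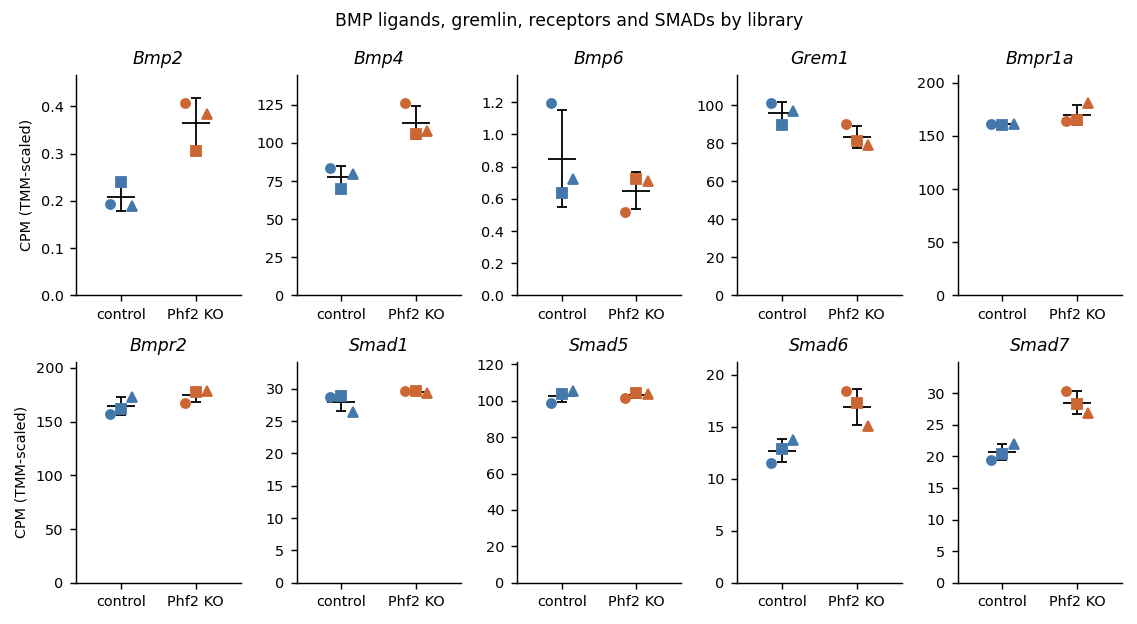
TMM-scaled CPM of each of the 10 genes (y axis, from 0) in control and *Phf2* KO libraries (x axis). Circles, squares and triangles are replicates 1, 2 and 3, and the bar is the mean with SD (n = 3). *Bmp4*, *Smad6* and *Smad7* stand higher in all 3 *Phf2* KO libraries, while the groups of *Smad5*, *Bmpr2* and *Grem1* overlap.

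The levels of the 10 genes differed widely when compared per length, as TPM. In control cells *Bmp4* was the highest, at 78.7 ± 8.10 TPM (SD, n = 3), followed by *Bmpr1a* at 56.6 ± 0.536 TPM, *Grem1* at 49.9 ± 3.26 TPM and *Smad5* at 33.0 ± 3.65 TPM. Below them came *Bmpr2* at 26.9 ± 1.75 TPM, *Smad1* at 19.6 ± 0.827 TPM, *Smad7* at 10.3 ± 0.522 TPM and *Smad6* at 9.19 ± 0.767 TPM. *Bmp6* and *Bmp2* were at the floor of the range, with medians of 0.021 and 0.111 TPM. Ranges over the 3 control libraries overlapped between the neighbours *Smad7* and *Smad6*, and between *Bmp6* and *Bmp2*, and were separate for the other neighbours. In *Phf2* KO cells the first 8 genes stood in the same order, from *Bmp4* at 114.7 ± 9.12 TPM to *Smad6* at 12.4 ± 1.03 TPM, and no neighbouring ranges overlapped.

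**Figure D2:**
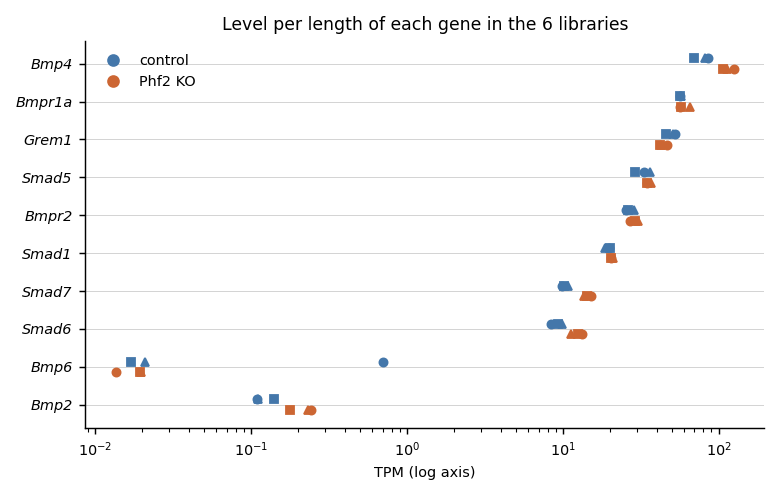
TPM of each gene (x axis, log scale) in the 3 control and 3 *Phf2* KO libraries, ordered from top to bottom by the control mean. *Bmp4* is the highest in each library (69.6 to 124.7 TPM), and *Bmp2* and *Bmp6* lie below 1 TPM.

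The DNA just before the transcription start is shown for *Bmp4* and *Smad6*, which rose, and for the BMP target *Id2*. Windows of 250 bases were taken from RefSeq (GRCm38.p6), which held 10 windows for 8 of the 10 BMP genes. The strand is that of the gene, minus in each case. The windows are chr14:46390670-46390919 for *Bmp4*, chr9:64022060-64022309 for *Smad6* and chr12:25096093-25096342 for *Id2*. Capitals mark matches on either strand to the GC box GGGCGG and to GGCGCC, a GC-rich element that BMP-activated SMADs can bind.
Bmp4: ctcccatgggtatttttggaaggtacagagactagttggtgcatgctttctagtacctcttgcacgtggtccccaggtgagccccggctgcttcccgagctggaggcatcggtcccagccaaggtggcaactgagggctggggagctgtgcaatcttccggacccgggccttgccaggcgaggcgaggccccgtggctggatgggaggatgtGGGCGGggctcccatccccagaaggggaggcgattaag
Smad6: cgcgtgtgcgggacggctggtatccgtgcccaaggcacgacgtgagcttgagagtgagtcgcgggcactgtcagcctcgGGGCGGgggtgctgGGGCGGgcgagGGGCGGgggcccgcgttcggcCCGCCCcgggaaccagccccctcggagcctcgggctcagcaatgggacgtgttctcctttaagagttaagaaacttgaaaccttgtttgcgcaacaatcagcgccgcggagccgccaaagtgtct
Id2: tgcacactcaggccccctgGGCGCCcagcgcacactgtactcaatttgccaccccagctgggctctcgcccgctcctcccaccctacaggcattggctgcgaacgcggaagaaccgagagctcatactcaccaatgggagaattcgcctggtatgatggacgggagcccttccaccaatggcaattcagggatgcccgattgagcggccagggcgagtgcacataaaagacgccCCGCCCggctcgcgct
The *Bmp4* window held 1 GC box, the *Smad6* window 4 and the *Id2* window 1, while GGCGCC stood in the *Id2* window and in neither of the other two. Over the 10 windows of the 8 BMP genes searched, 10 held a GC box, 4 held GGCGCC, 3 held the SMAD-binding letters CAGAC and 0 held TATAAA. Each was searched on both strands. Of the 32851 windows of all genes, 32.7% held GGGCGG, 9.59% held GGCGCC, 42.2% held CAGAC and 12.4% held TATAAA. The GC content of the BMP gene windows was 60.0% to 78.8%, against a median of 52.4% over all windows. Among the 8 BMP genes searched, the 4 with GGCGCC were *Bmpr1a*, *Bmpr2*, *Smad5* and *Grem1*, none of which passed the threshold. *Smad7*, which passed it, was not among the 8, so GGCGCC cannot be set against all the calls.

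*Bmp4* was the main BMP-type ligand. It made up between 96.4% and 98.4% of the summed TPM of 16 BMP-type ligand genes in every library. The other 13 ligand genes (*Bmp3*, *Bmp5*, *Bmp7* and growth differentiation factors among them) summed to between 1.16 and 2.38 TPM in control cells and between 1.56 and 2.05 TPM in *Phf2* KO cells. Of these 13, 4 passed the filter on low counts and 0 passed the threshold.

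*Bmp4* (ENSMUSG00000021835.15, chromosome 14, 46383520 to 46390669, minus strand) was 83.4, 69.4 and 79.8 CPM in control replicates 1, 2 and 3, and 125.9, 106.1 and 107.7 CPM in *Phf2* KO replicates 1, 2 and 3. Every *Phf2* KO library lay above every control library. The mean rose from 77.6 ± 7.27 to 113.2 ± 11.0 CPM (SD, n = 3). The log2 fold change was 0.55 (SE 0.083, 95% interval 0.36 to 0.73, adjusted p = 0.00489), or 1.46-fold. Libraries with the same replicate number differed by 0.59, 0.61 and 0.43 on the log2 scale. The adjusted p was at most 0.024 with any library left out, but 0.0504 and 0.0526 with limma on TPM, after adding 1 or 0.1 before the log2. The antisense gene *Gm15222*, which overlaps *Bmp4*, was 5.47, 4.38 and 5.75 CPM in control and 7.09, 8.24 and 7.17 CPM in *Phf2* KO libraries (log2 fold change 0.53, adjusted p = 0.053), and whether the counting used the strand is not given in the sources used here.

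*Bmp2* and *Bmp6* were too low for a difference to be read. *Bmp2* (ENSMUSG00000027358.6, chromosome 2, 133552159 to 133562885) had estimated counts of 11, 14 and 11 in control and 25, 16 and 26 in *Phf2* KO libraries. The groups did not overlap, yet the 95% interval of its log2 fold change of 0.81 ran from -0.44 to 2.06 (adjusted p = 0.508). *Bmp6* (ENSMUSG00000039004.6, chromosome 13, 38345107 to 38500302) had 68, 37 and 42 counts in control and 32, 38 and 48 in *Phf2* KO libraries. Its groups overlapped, with a log2 fold change of -0.38 (95% interval -1.22 to 0.46, adjusted p = 0.672), or -0.06 without control replicate 1, where its TPM was 0.708 against 0.017 and 0.021 in the other control libraries. *Bmp6* overlaps *Txndc5*, which is on the other strand and had at least 19706 counts in every library.

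*Grem1* (ENSMUSG00000074934.3, chromosome 2, 113746164 to 113758646), whose product gremlin binds BMP2 and BMP4 and blocks them, was 101.0, 89.4 and 97.1 CPM in control replicates 1, 2 and 3, and 90.0, 81.1 and 79.1 CPM in *Phf2* KO replicates 1, 2 and 3. The highest *Phf2* KO library overlapped with the lowest control library by less than 1 CPM. The log2 fold change was -0.20 (SE 0.059, 95% interval -0.33 to -0.07), which did not pass the threshold (adjusted p = 0.0629). Within replicate numbers the difference was -0.17, -0.14 and -0.29 on the log2 scale, and a fit blocked by replicate number gave an adjusted p of 0.0236. *Grem1* was also past the threshold without *Phf2* KO replicate 1 (0.0234), with DESeq2 (0.0296), with counts divided by 2 (0.046) and with other filters on low counts. The ratio of *Bmp4* to *Grem1*, in TPM, was 1.62, 1.50 and 1.61 in control libraries and 2.69, 2.52 and 2.65 in *Phf2* KO libraries.

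Neither receptor passed the threshold. *Bmpr1a* (ENSMUSG00000021796.15, chromosome 14, 34410734 to 34503341), a type I receptor, was 161.1, 160.0 and 161.6 CPM in control and 163.5, 164.7 and 180.6 CPM in *Phf2* KO libraries. These groups did not overlap, but the log2 fold change was 0.08 (95% interval -0.03 to 0.18, adjusted p = 0.437), and 0.03 without *Phf2* KO replicate 3. *Bmpr2* (ENSMUSG00000067336.6, chromosome 1, 59763400 to 59879014), the type II receptor, was 156.8, 162.1 and 173.2 CPM in control and 167.2, 177.5 and 178.8 CPM in *Phf2* KO libraries. Its groups overlapped, with a log2 fold change of 0.09 (95% interval -0.02 to 0.20, adjusted p = 0.364). The upper ends of these intervals correspond to a 1.13-fold and a 1.15-fold rise.

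Among 10 other receptors and co-receptors tested, 2 rose and 1 fell past the threshold, where 3.22% of all genes tested rose and 3.26% fell. The median difference of these 10 was 0.09 on the log2 scale. *Acvr1*, which encodes the type I receptor ALK2, rose from 72.5 ± 3.56 to 83.1 ± 4.35 CPM (SD, n = 3; log2 fold change 0.20, adjusted p = 0.0481). *Neo1*, which encodes the receptor neogenin, rose with a log2 fold change of 0.16 (adjusted p = 0.0332). *Hjv*, which encodes the muscle and liver BMP co-receptor hemojuvelin, was 81.7, 76.8 and 68.8 CPM in control and 51.4, 58.9 and 57.9 CPM in *Phf2* KO libraries. All *Phf2* KO libraries were lower, and *Hjv* fell by 0.43 on the log2 scale (adjusted p = 0.00256, at most 0.02 with any library left out). *Acvr1* remained past the threshold in 1 of 6 fits without a library (without *Phf2* KO replicate 1, with an adjusted p of up to 0.17 in the others), and *Neo1* in 0 of 6 (0.0767 to 0.157). With all 6 libraries and the exactTest of edgeR, neither *Acvr1* (adjusted p = 0.0523) nor *Neo1* (0.0713) passed.

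The receptor-regulated SMADs did not pass the threshold. *Smad1* (ENSMUSG00000031681.16, chromosome 8, 79338395 to 79399518) was 28.8, 28.8 and 26.4 CPM in control and 29.7, 29.6 and 29.3 CPM in *Phf2* KO libraries. The *Phf2* KO libraries were all higher, by a small margin, with a log2 fold change of 0.08 (95% interval -0.07 to 0.22, adjusted p = 0.611). *Smad5* (ENSMUSG00000021540.16, chromosome 13, 56703010 to 56742377) was 99.0, 103.6 and 105.5 CPM in control and 101.5, 104.1 and 103.9 CPM in *Phf2* KO libraries. The groups overlapped, with a log2 fold change of 0.01 (95% interval -0.09 to 0.10, adjusted p = 0.967) that turned to -0.02 without control replicate 1 and to -2.61e-04 without *Phf2* KO replicate 2. With limma on TPM it was 0.10, whether 1 or 0.1 was added before the log2.

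Both inhibitory SMADs rose. *Smad7* (ENSMUSG00000025880.11, chromosome 18, 75367529 to 75395935), whose product blocks TGF-beta and BMP receptors, was 19.5, 20.4 and 22.0 CPM in control replicates 1, 2 and 3 and 30.4, 28.3 and 26.8 CPM in *Phf2* KO replicates 1, 2 and 3. All *Phf2* KO libraries were above all control libraries, with a mean of 28.5 ± 1.80 against 20.6 ± 1.27 CPM (SD, n = 3). The log2 fold change was 0.46 (SE 0.080, 95% interval 0.29 to 0.64, adjusted p = 0.00305), or 1.38-fold. The adjusted p was at most 0.0245 with any library left out, and 0.0693 and 0.0663 with limma on TPM, after adding 1 or 0.1. *Smad6* (ENSMUSG00000036867.7, chromosome 9, 63953076 to 64022059, minus strand), whose product acts mainly on BMP receptors, was 11.6, 12.8 and 13.7 CPM in control and 18.5, 17.3 and 15.1 CPM in *Phf2* KO libraries. The groups did not overlap, but the gap between them was narrow.

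For *Smad6* the mean rose from 12.7 ± 1.08 to 16.9 ± 1.73 CPM (SD, n = 3). The log2 fold change was 0.41 (SE 0.11, 95% interval 0.19 to 0.64, adjusted p = 0.0316), or 1.33-fold. The call was lost when the first (adjusted p = 0.128) or the second control library (0.113) was left out, and likewise *Phf2* KO replicate 1 (0.119) or 2 (0.113). Within replicate numbers *Smad6* differed by 0.68, 0.43 and 0.14 and *Smad7* by 0.64, 0.47 and 0.29 on the log2 scale. The sum of *Smad6* and *Smad7*, in TPM, was 18.2, 19.5 and 20.8 in control libraries and 28.6, 27.0 and 25.1 in *Phf2* KO libraries. The sum of *Smad1*, *Smad5* and *Smad9* was 54.0, 49.9 and 55.7 TPM in control and 56.2, 55.6 and 58.6 TPM in *Phf2* KO libraries. The ratio of the inhibitory to the receptor-regulated sum was 0.338, 0.391 and 0.373 in control and 0.509, 0.485 and 0.428 in *Phf2* KO libraries.

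**Figure D3:**
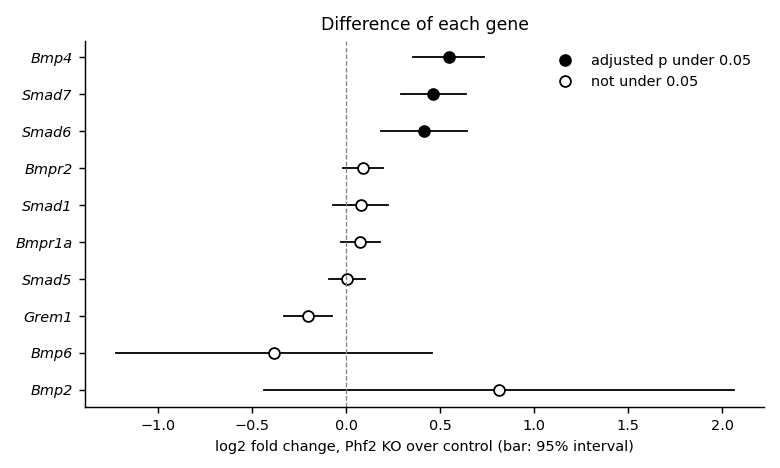
Log2 fold change of each gene, *Phf2* KO over control (x axis), from the quasi-likelihood fit, with 95% intervals as bars. Filled points have an adjusted p under 0.05: *Bmp4* (0.55), *Smad7* (0.46) and *Smad6* (0.41). The intervals of *Bmp2* and *Bmp6*, the genes with the lowest counts, are the widest.

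Of 10 other SMADs and SMAD cofactors, 2 rose past the threshold and 0 fell, where 3.22% of all genes tested rose and 3.26% fell. The median difference of these 10 was 0.16 on the log2 scale. *Smad4*, the partner of all receptor-regulated SMADs, was 74.1, 73.3 and 83.2 CPM in control and 86.3, 89.5 and 91.5 CPM in *Phf2* KO libraries (log2 fold change 0.21, adjusted p = 0.0339). *Smurf2*, a ubiquitin ligase that acts with inhibitory SMADs, was 80.9, 75.4 and 74.9 CPM in control and 89.4, 89.0 and 96.1 CPM in *Phf2* KO libraries (log2 fold change 0.25, adjusted p = 0.00966). In CPM, all *Phf2* KO libraries were above all control libraries for both genes, a pattern of 12.9% of all genes tested. In TPM the groups overlapped for both, and neither gene passed with limma on TPM. *Smurf2* did not pass without control replicate 2 (0.0693), and *Smad4* passed in 2 of 6 fits without a library.

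Extracellular BMP modulators moved in opposite directions. Of 16 tested, 2 rose and 3 fell past the threshold, where 3.22% of all genes tested rose and 3.26% fell. *Fst*, the gene of follistatin, which binds activins and BMPs, was 52.6, 58.8 and 56.0 CPM in control and 27.7, 37.7 and 34.5 CPM in *Phf2* KO libraries. It fell by 0.75 on the log2 scale (SE 0.10, adjusted p = 0.00182), and the groups were far apart. *Chrd*, the gene of the BMP-binding chordin, was 9.01, 8.28 and 8.17 CPM in control and 5.80, 6.09 and 4.88 CPM in *Phf2* KO libraries, and fell by 0.60 (adjusted p = 0.0173). *Tll1*, which encodes a metalloprotease that cleaves chordin, fell by 1.02 from a low level of 2.60 ± 0.682 CPM (SD, n = 3; adjusted p = 0.0319). With limma on TPM after adding 1, the *Tll1* log2 fold change was -0.48 (adjusted p = 0.384).

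*Twsg1*, which encodes the chordin partner twisted gastrulation, was 101.2, 100.1 and 97.6 CPM in control and 120.9, 116.7 and 121.1 CPM in *Phf2* KO libraries. It rose with a log2 fold change of 0.26 (adjusted p = 0.00189). *Fstl1*, the gene of a secreted follistatin-like protein, rose from 1410 ± 34.6 to 1736 ± 37.1 CPM (SD, n = 3; log2 fold change 0.30, adjusted p = 1.68e-04), with no overlap between groups. *Fst*, *Twsg1* and *Fstl1* passed the threshold in each fit without a library. *Chrd* was lost without control replicate 1 (0.0735) or 2 (0.0682) and without *Phf2* KO replicate 3 (0.0791), and *Tll1* passed in 1 of 6 such fits.

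Of the 16 listed BMP target genes, 14 were tested, of which 11 had a positive and 3 a negative log2 fold change. The median log2 fold change of the 14 was 0.17. Past the threshold, 3 rose and 0 fell, where 3.22% of all genes tested rose and 3.26% fell. *Id1*, *Id2* and *Id3* encode inhibitors of myogenic bHLH factors. *Id2* was 14.7, 17.8 and 16.6 CPM in control and 20.2, 19.9 and 22.0 CPM in *Phf2* KO libraries, a rise of 0.34 on the log2 scale (SE 0.092, adjusted p = 0.0419). *Id3* was 98.3, 82.2 and 109.8 CPM in control and 147.8, 135.6 and 127.0 CPM in *Phf2* KO libraries, with a log2 fold change of 0.50 (SE 0.11, 95% interval 0.22 to 0.78, adjusted p = 0.0661). *Id1* was 20.4, 15.8 and 18.9 CPM in control and 22.3, 22.7 and 22.6 CPM in *Phf2* KO libraries, with a log2 fold change of 0.29 (SE 0.094, adjusted p = 0.0883).

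For each of these *Id* genes, all *Phf2* KO libraries were above all control libraries, a pattern of 12.9% of all genes tested. *Id2* passed in 0 of 6 fits without a library (adjusted p from 0.0601 to 0.167), and *Id3* passed when control replicate 2 (0.0163) or 3 (0.00215) was left out. *Id3* also passed with exactTest (adjusted p = 5.52e-05), DESeq2 (3.31e-07) and limma-voom (0.0118). On simulated data, exactTest and DESeq2 made a larger share of false calls than the quasi-likelihood test. *Runx2*, a transcription factor of osteoblasts, was 52.7, 51.7 and 58.5 CPM in control and 64.4, 70.5 and 67.0 CPM in *Phf2* KO libraries. It rose with a log2 fold change of 0.31 (adjusted p = 0.00697), but did not pass without control replicate 2 (0.0597) or *Phf2* KO replicate 2 (0.0511). *Atoh8*, a bHLH factor gene, rose with a log2 fold change of 0.32 (adjusted p = 0.0405) and passed in 2 of 6 fits without a library. *Msx2*, a homeobox gene singled out after its values were seen, had the opposite sign at a very low level, with 0.526, 0.824 and 0.567 CPM in control and 0.228, 0.152 and 0.177 CPM in *Phf2* KO libraries (log2 fold change -1.77, adjusted p = 0.0624).

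**Figure D4:**
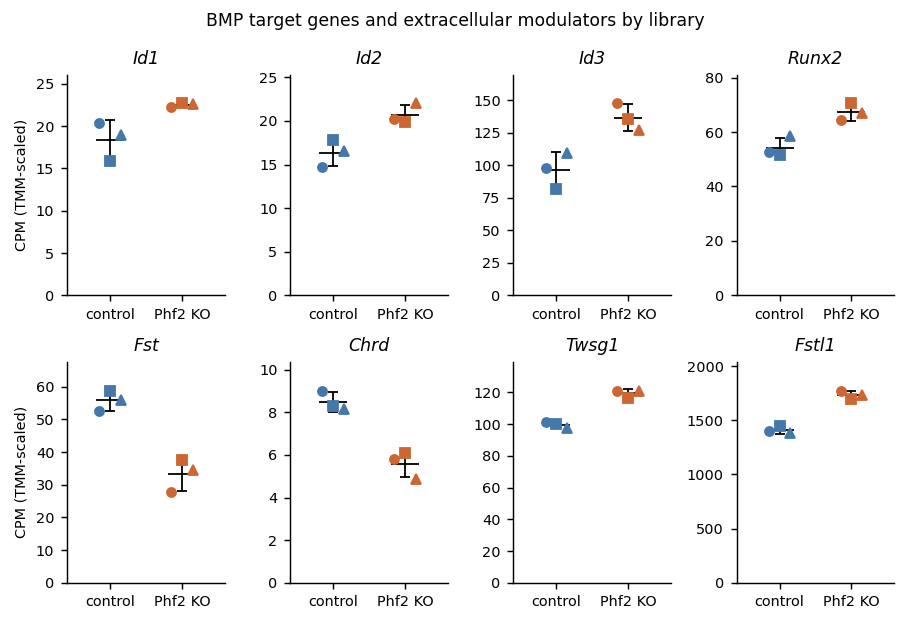
TMM-scaled CPM (y axis, from 0) of 8 BMP target and modulator genes in control and *Phf2* KO libraries. Symbols are replicates 1, 2 and 3 and bars the mean with SD (n = 3). *Id1*, *Id2*, *Id3*, *Runx2*, *Twsg1* and *Fstl1* are higher and *Fst* and *Chrd* lower in all 3 *Phf2* KO libraries, of which *Id1* and *Id3* had an adjusted p above 0.05.

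Over these 5 lists together, 13 of 54 genes tested (24.1%) passed the threshold, 9 with a rise and 4 with a fall, where 6.48% of all genes did. Their median log2 fold change was 0.14. The number was between 5 and 13 in the fits without a library, and leaving out control replicate 2 gave 5, *Phf2* KO replicate 2 or 3 gave 7 each, and control replicate 1 gave 8. The lists were written with earlier results of these data known, so the counts are a description.

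Osteoblast markers were examined because BMP is known to steer C2C12 cells toward that fate. Of the 10 listed, 7 were tested, and 1 rose past the threshold. That was *Col1a1*, the collagen I gene, which fibroblasts and myoblasts also express, with a log2 fold change of 0.20 (adjusted p = 0.0118). *Spp1*, the osteopontin gene, had a log2 fold change of 0.19 (adjusted p = 0.0526), and *Phex* one of -0.15 (adjusted p = 0.869). Other defining osteoblast genes were near 0, named after their values were seen. *Ibsp* had 0 counts in all 6 libraries, *Sp7* at most 14 and *Alpl* at most 18. The summed level of the list was 2576 to 2650 TPM in control and 2887 to 3132 TPM in *Phf2* KO libraries, most of it from *Col1a1* and *Spp1*.

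**Figure D5:**
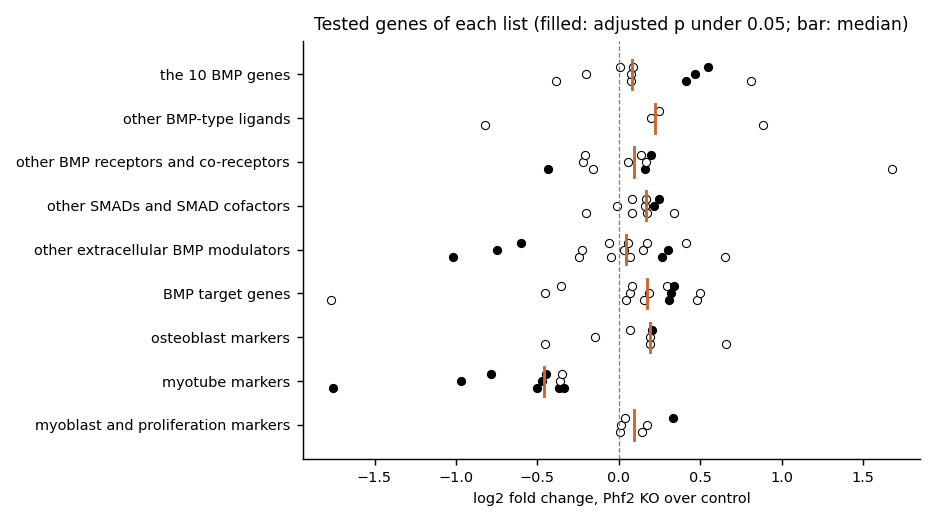
Log2 fold change (x axis) of every tested gene in each list (y axis). Filled points have an adjusted p under 0.05, and the bar is the median of the list. The median of the 10 BMP genes is 0.08 and that of the BMP target genes 0.17, while all 10 myotube markers lie below 0.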

How the data were processed

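RNA-seq was analysed for 3 control and 3 *Phf2* KO libraries of polyadenylated RNA. Paired-end reads were aligned by the authors to mm10 with HISAT2, and StringTie gave 1 estimated count per gene. The deposited matrix holds these estimated counts as whole numbers without scaling, totalling 52526109 to 67502788 per library. They are not read numbers: in genes with 1 transcript, coverage times length per count had a median of 74.98 to 74.99 bases. The reads of the study were longer than this, so the counts exceed the read numbers. A deposited table per library gives TPM, a signal that the authors scaled by length and within that library. Only reference genes were used from them, not assembled loci. Tool versions and the annotation are not given in the sources used here.

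Counts were analysed with edgeR 4.0.16 in R 4.3.3: filterByExpr (minimum count 10), TMM, and the quasi-likelihood test with robust dispersions over 17310 genes. A prior count of 0.125 entered the log2 fold changes, and intervals are 95% intervals from the standard error. Coordinates are from GENCODE M21 (GRCm38, the assembly of mm10). Alternatives were exactTest (the test in the study), DESeq2 1.42.0, limma-voom and limma 3.58.1 on TPM, other scalings and filters, counts divided by 2 and by 4, and leaving out each library. The quasi-likelihood test was tested on simulated data with known changes. Every true call had the right sign. The share of false calls was above the nominal level. The simulation changed fewer genes than were called here, and this share can depend on that number. Its size in these data is thus not known, and calls close to the threshold should be read as less firm than their adjusted p. With exactTest and DESeq2 the share of false calls was larger, so calls by these alone are less firm still. Figures were drawn with matplotlib 3.10.9.

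Same-numbered libraries deviated together from their group means (correlations of 0.183, 0.345 and 0.234 over 10923 genes with at least 5 CPM, which are not independent, and at most 0.09 for other pairs), so the replicate number was used as a block in an alternative. The study's test has no block.

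Named were *Phf2*, the 10 genes, *Id1* to *Id3*, up to 5 genes past the threshold per pathway list and up to 3 genes of highest TPM per marker list reported. *Msx2*, *Gm15222*, *Txndc5*, *Smad9*, *Ibsp*, *Sp7* and *Alpl* were named after their values were seen. Members and lists were chosen with earlier results of these data known.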

Additional observations from a re-analysis of the deposited data

How the results depend on the processing

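Directions of *Bmp4*, *Smad6*, *Smad7* and *Grem1* held in every alternative run. In limma on TPM, with 1 or 0.1 added before the log2, which called 160 and 151 genes of all tested against 1122, 0 of the 10 BMP genes passed, with log2 fold changes of 0.54 and 0.54 for *Bmp4*, 0.40 and 0.43 for *Smad6* and 0.45 and 0.48 for *Smad7*, and 1 of the other pathway genes (*Fstl1*) in each. With limma-voom *Smad6* (0.41) did not pass (adjusted p = 0.0595), and the other pathway genes past the threshold numbered 9 instead of 13, without *Acvr1* (0.0806), *Atoh8* (0.0628), *Id2* (0.0561), *Smad4* (0.0598) and *Tll1* (0.072) and with *Id3*. *Acvr1* was also lost with DESeq2 size factors (0.0501) and library size alone (0.0501), and *Neo1* with no filter (0.0612). *Grem1* passed with DESeq2 (-0.20), no filter (-0.20), a filter of 1 CPM (-0.20), counts divided by 2 (-0.20) or 4 (-0.20) and the replicate block (-0.20, adjusted p = 0.0236). The block changed no other call of the 10 BMP genes, and the other pathway genes past the threshold numbered 15, the 13 and also *Bmper* and *Zeb2*. At an adjusted p under 0.01, 472 genes passed, 6 of them other pathway genes.

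Without 1 library, log2 fold changes ran from 0.46 to 0.60 for *Bmp4*, 0.35 to 0.49 for *Smad6*, 0.42 to 0.51 for *Smad7*, -0.26 to -0.16 for *Grem1* and -0.0227 to 0.0238 for *Smad5*, which turned to -0.02 without control replicate 1 and to -2.61e-04 without *Phf2* KO replicate 2. All genes past the threshold numbered 468 to 1039, and other pathway genes 5 to 13. The cause of these shifts was not tested. *Bmp2* gave no value with a filter of 1 CPM, with counts divided by 2 or 4 or with limma on TPM, and *Bmp6* none with the 1 CPM filter or limma on TPM, since their counts are low.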
